A study of Mus musculus with 15 samples.

Results

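The CARD-BCL10-MALT1 genes were followed in podocyte fractions of mouse kidney. They are *Card9*, *Card10*, *Card14*, *Bcl10* and *Malt1*, a set of 5 genes named by their role in this signaling complex. The set was chosen with earlier results of these data known. All 5 were found by Ensembl identifier among the 46078 genes in the count table. The samples came from male C57BL/6J mice. Young mice were 4 months old and were not injected. Aged mice were 21 months old and were injected weekly at 12 mg/kg for 8 weeks, either with an antibody that blocks the receptor PD-1 (aPD1ab, clone RMP1-14) or with an isotype control antibody (IgG2a, clone 2A3), although the titles of the aPD1ab samples name 47 days. The labels list 5 mice a group. The numbers heading the columns of the count table tie 13 libraries to a group, 5 of young mice, 4 of aged mice given IgG2a and 4 of aged mice given aPD1ab, each from a separate mouse as far as the labels say. The comparison of aged IgG2a-injected with young mice spans age and injection together, which cannot be told apart, and all 3 comparisons share libraries.

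In this pathway, a CARD-coiled-coil protein (CARD9, CARD10 or CARD14) is released by phosphorylation downstream of a receptor and seeds filaments of the adaptor BCL10. BCL10 carries MALT1, a paracaspase that recruits TRAF6 and cuts a small set of regulatory proteins, and the assembled complex activates the IκB kinases and hence NF-κB. CARD9 is known from myeloid cells, where it acts below C-type lectin receptors and the kinase SYK. CARD10 (also called CARMA3) is the form of epithelial and other non-hematopoietic cells, below G protein-coupled and growth factor receptors, and CARD14 is best known from keratinocytes.

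The fractions were sorted with antibodies to nephrin and magnetic beads, and reads were counted per gene, with 19912969 to 32717100 counts per library (median 24683223). A gene with 3 counts stood at 0.0843 to 0.207 CPM (the read count relative to the size of its library, TMM-normalized), a limit that covers counting error only. The fractions held podocyte markers but also RNA of other cells. The summed level of 6 podocyte markers was 776 to 1258 CPM in young mice, 287 to 370.9 with IgG2a and 186 to 645 with aPD1ab. The summed level of 6 proximal tubule markers was higher than that of the podocyte markers in every library, at 3603 to 5876, 466 to 2545 and 2390 to 7900 CPM in the same order. Aged IgG2a replicate 1 stood apart from its group. On principal component 1 of log2 CPM, which held 40.7% of the variance, it scored 16.4. The other 3 libraries of that group scored -84.2 to -71.6, young libraries scored 24.6 to 41.4 and aPD1ab libraries -10.9 to 64.9. Comparisons that use this library are therefore given with and without it. The library was singled out from these same values, so p-values without it are descriptive only. Leaving it out raised the genes called in edgeR from 2780 to 7397 in IgG2a against young. In aPD1ab against IgG2a they went from 0 to 4788. In bulk RNA, fewer cells of a type and less RNA per cell cannot be told apart.

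The 5 genes lie on 5 chromosomes (GRCm38, GENCODE M21). *Card9* (ENSMUSG00000026928) spans chr2:26352176-26360918 on the minus strand, *Card10* (ENSMUSG00000033170) chr15:78775138-78803042 on the minus strand, *Card14* (ENSMUSG00000013483) chr11:119307768-119345375 on the plus strand and *Bcl10* (ENSMUSG00000028191) chr3:145922804-145934356 on the plus strand, while the position of *Malt1* is given with its values. The exons of *Card14* share 955 bases with *Sgsh*, the gene of a lysosomal sulfamidase on the opposite strand, and those of *Card9* share 87 bases with the antisense RNA gene *Gm13562*. The sources used here do not state whether counting used strand, so reads in those stretches cannot be assigned to either gene. *Sgsh* stood at 16.03 ± 1.95 CPM (SD, n = 5) in young mice, at 18.5 ± 4.05 CPM with IgG2a and at 12.5 ± 1.34 CPM with aPD1ab (SD, n = 4 each), an order opposite to that of *Card14* below.

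Sequences before the start sites of *Card9*, *Card10* and *Bcl10* are shown because these 3 genes differed between aged IgG2a-injected and young mice (below). Each is the 250 bases before the start in RefSeq (GRCm38.p6), written 5′ to 3′ on the strand of the gene. They lie at chr2:26360910-26361159 (minus strand), chr15:78803043-78803292 (minus strand) and chr3:145924012-145924261 (plus strand). The RefSeq start of *Bcl10* lies within its GENCODE span given above, so this whole stretch falls inside the annotated gene. The *Card9* stretch overlaps the first bases of its GENCODE span. Capitals mark CG pairs in *Card9* and *Card10* and a match to the κB consensus, the motif bound by NF-κB, in *Bcl10*.
Card9: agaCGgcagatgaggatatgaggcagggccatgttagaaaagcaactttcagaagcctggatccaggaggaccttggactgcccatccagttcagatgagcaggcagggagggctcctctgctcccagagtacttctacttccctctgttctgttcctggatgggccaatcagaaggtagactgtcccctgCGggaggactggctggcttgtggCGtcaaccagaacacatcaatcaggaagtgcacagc
Card10: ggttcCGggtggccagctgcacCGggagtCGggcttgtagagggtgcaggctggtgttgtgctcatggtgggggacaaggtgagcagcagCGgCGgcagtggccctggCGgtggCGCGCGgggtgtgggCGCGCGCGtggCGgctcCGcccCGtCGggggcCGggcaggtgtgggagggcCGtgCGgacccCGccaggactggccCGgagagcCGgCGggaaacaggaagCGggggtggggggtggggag
Bcl10: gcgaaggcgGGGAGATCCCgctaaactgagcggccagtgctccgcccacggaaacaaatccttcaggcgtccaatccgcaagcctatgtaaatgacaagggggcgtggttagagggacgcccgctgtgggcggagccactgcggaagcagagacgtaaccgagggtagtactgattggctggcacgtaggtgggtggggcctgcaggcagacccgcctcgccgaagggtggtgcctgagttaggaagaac
The *Card9* stretch held 3 CG pairs at a GC content of 55.2%. The *Card10* stretch held 25 CG pairs at 76%, more than 89.3% of mouse promoters of the same length, and that of *Bcl10* held 19 at 62.4%. The κB consensus, searched on both strands, was matched at 1 place in *Bcl10*, 241 to 232 bases before the start, where the match reads on both strands. It was not matched in the *Card9* and *Card10* stretches, and 7.25% of 32851 promoters held a match. A match is a description of letters and not a measured binding site.

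Per length of exon, *Card10* was the most abundant of the 5 mRNAs in young podocyte fractions and *Card9* in aged IgG2a-injected ones. RPKM is used for this order, since CPM favors long transcripts and *Malt1* has 18040 exonic bases against 2293 in *Card9*. In young mice *Card10* stood at 12.9 ± 1.31 RPKM (SD, n = 5), *Bcl10* at 6.54 ± 0.540, *Card9* at 6.09 ± 1.74, *Malt1* at 1.84 ± 0.234 and *Card14* at 0.364 ± 0.112. *Bcl10* and *Card9* overlapped, and every other neighboring pair in this order was separate in range.
In aged IgG2a-injected mice the order was *Card9* at 13.01 ± 4.88 RPKM (SD, n = 4), *Bcl10* at 9.99 ± 1.90, *Card10* at 6.02 ± 2.33, *Malt1* at 2.05 ± 0.507 and *Card14* at 0.194 ± 0.0257. The levels of *Card9*, *Bcl10* and *Card10* overlapped there. Without replicate 1 (n = 3) the order was the same, at 15.4 ± 1.16 RPKM for *Card9*, 10.9 ± 0.522 for *Bcl10* and 4.89 ± 0.682 for *Card10*, and these 3 ranges were separate. In aged aPD1ab-injected mice *Card10* stood at 12.3 ± 4.62 RPKM (SD, n = 4), *Bcl10* at 8.27 ± 1.41, *Card9* at 7.86 ± 2.88, *Malt1* at 1.77 ± 0.402 and *Card14* at 0.627 ± 0.358, and the ranges of *Card10*, *Bcl10* and *Card9* again overlapped. *Card14* was the lowest in each group, at the 12.97 percentile of the mean RPKM of 16279 expressed genes, where *Card10* was at the 78.6, *Card9* at the 74.2, *Bcl10* at the 72.4 and *Malt1* at the 35.7 percentile.

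**Figure D1:**
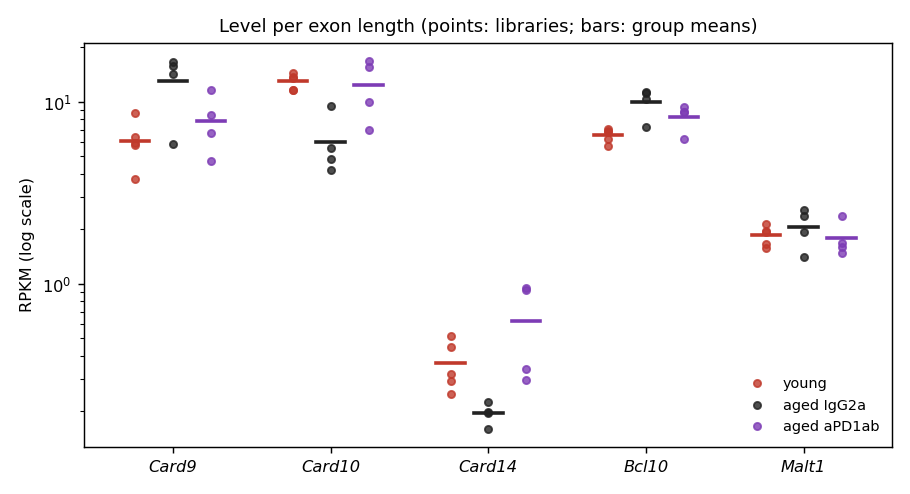
RPKM of each gene on a log axis, with a point for each library and a bar at each group mean (5 young, 4 aged IgG2a, 4 aged aPD1ab libraries). *Card10* is above *Bcl10* in every young library, while the mean of *Card9* is the highest of the 5 with IgG2a, at 13.01 RPKM, and *Card14* is the lowest throughout.

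The first comparison asked how the genes of the complex differ between aged IgG2a-injected and young mice. *Card9* and *Bcl10* were higher and *Card10* was lower in aged mice, a move of the 2 CARD genes in opposite directions. Of the 5 genes, 2 rose and 1 fell at an adjusted p under 0.05 (edgeR, adjusted over 15953 genes), where 9.05% of all genes rose and 8.38% fell. *Card14* and *Malt1* did not pass. Without aged IgG2a replicate 1, 3 rose and 1 fell, against 22.1% and 23.5% of 16216 genes. The groups did not overlap for *Card10*, *Bcl10* and *Card14*, as for 14.5% of all genes tested. Without that replicate 46.8% of all genes did not overlap.

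*Card10* stood at 67.0, 57.3, 67.7, 57.0 and 71.3 CPM in the 5 young libraries and at 46.6, 20.9, 24.1 and 27.6 CPM in aged IgG2a replicates 1 to 4. Every aged library was below every young one, and replicate 1 was the nearest to them. The log2 fold change was -1.05 (SE 0.21, edgeR adjusted p = 0.0154), a 2.06-fold lower level, and -1.35 (SE 0.12, edgeR adjusted p = 1.32e-05) without replicate 1. Proximal tubule markers moved the same way, and all 6 of them fell, with a median log2 fold change of -1.92 (-2.65 without replicate 1), as did 5 of 6 podocyte markers (median -2.22); their part in the *Card10* result was not tested.

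*Card9* stood at 14.6, 19.8, 13.2, 8.62 and 13.6 CPM in young mice and at 13.4, 35.9, 32.4 and 37.6 CPM in aged IgG2a replicates 1 to 4. Replicate 1 lay among the young libraries, and the other 3 lay above all of them. On the log2 scale the difference was 1.16 (SE 0.31, edgeR adjusted p = 0.0343), a 2.24-fold higher level, and 1.39 (SE 0.21, edgeR adjusted p = 5.47e-04) without replicate 1. Macrophage markers rose beside it, in 6 of 6 genes with a median log2 fold change of 1.45 (1.68 without replicate 1), from a summed 1241 to 2206 CPM in young mice to 1843 to 6011 CPM in aged IgG2a-injected mice, with replicate 1 the lowest of its group in both. All 6 of these markers passed the filter on low counts, and their part in the *Card9* result was not tested.

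*Bcl10*, the adaptor shared by all CARD forms, stood at 32.1, 28.6, 26.1, 31.4 and 31.0 CPM in young mice and at 32.9, 51.6, 50.7 and 47.1 CPM in aged IgG2a replicates 1 to 4. The groups did not overlap, but replicate 1 was only just above the highest young library. *Bcl10* was thus higher by 0.68 on the log2 scale (SE 0.14, edgeR adjusted p = 0.0187), a 1.60-fold higher level, and 0.80 (SE 0.09, edgeR adjusted p = 5.65e-05) without replicate 1.
*Malt1*, the protease of the complex (ENSMUSG00000032688, chr18:65430938-65479067, plus strand), stood at 35.1, 34.8, 28.2, 29.7 and 38.4 CPM in young mice and at 25.2, 34.5, 42.5 and 45.7 CPM in aged IgG2a replicates 1 to 4. The groups overlapped, and the log2 fold change of 0.22 (95% interval -0.17 to 0.61, edgeR adjusted p = 0.395) was not distinguishable from 0. Without replicate 1 it was 0.35 (SE 0.12, edgeR adjusted p = 0.0371).

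*Card14* was measured from few reads, 13 to 68 a library in these groups. Its levels were 2.36, 2.07, 1.47, 1.14 and 1.34 CPM in young mice and 0.908, 0.736, 1.02 and 0.898 CPM in aged IgG2a replicates 1 to 4. The groups did not overlap, yet the log2 fold change of -0.85 (SE 0.28) missed the threshold (edgeR adjusted p = 0.0631), and did so without replicate 1 as well (-0.87, edgeR adjusted p = 0.0533). It passed with DESeq2 (adjusted p = 0.027), with limma voom (adjusted p = 0.036) and when scaled by total counts (-1.27, edgeR adjusted p = 0.021). These settings called 27.9%, 46.5% and 23.3% of all genes.

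These calls depended on single libraries other than replicate 1 too. *Card9* no longer passed without young replicate 1, 3, 4 or 5 (edgeR adjusted p = 0.0687 to 0.0803), nor without aged IgG2a replicate 2, 3 or 4 (edgeR adjusted p = 0.0925 to 0.1). Without aged IgG2a replicate 3 none of the 5 genes passed, where 3.397% of all genes did, and the edgeR adjusted p was 0.0937 for *Card9*, 0.0553 for *Card10* and 0.063 for *Bcl10*. Without young replicate 3, or without aged IgG2a replicate 2, *Card10* alone passed, where 5.12% and 4.15% of all genes did. Scaled by total counts in place of TMM, which moved the median log2 fold change of all genes to -0.38, *Card10* still passed while *Bcl10* was at 0.23 (edgeR adjusted p = 0.269), *Card9* at 0.67 (edgeR adjusted p = 0.0901) and *Malt1* at -0.25 (edgeR adjusted p = 0.212). The number of *Card10* to *Card9* reads, a ratio that no scaling between libraries can change, was 4.58, 2.90, 5.14, 6.62 and 5.24 in young mice, and 3.49, 0.581, 0.743 and 0.734 in aged IgG2a replicates 1 to 4. *Card9* thus had more reads than *Card10* in 3 of the 4 aged IgG2a-injected libraries and in none of the 5 young ones.

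**Figure D2:**
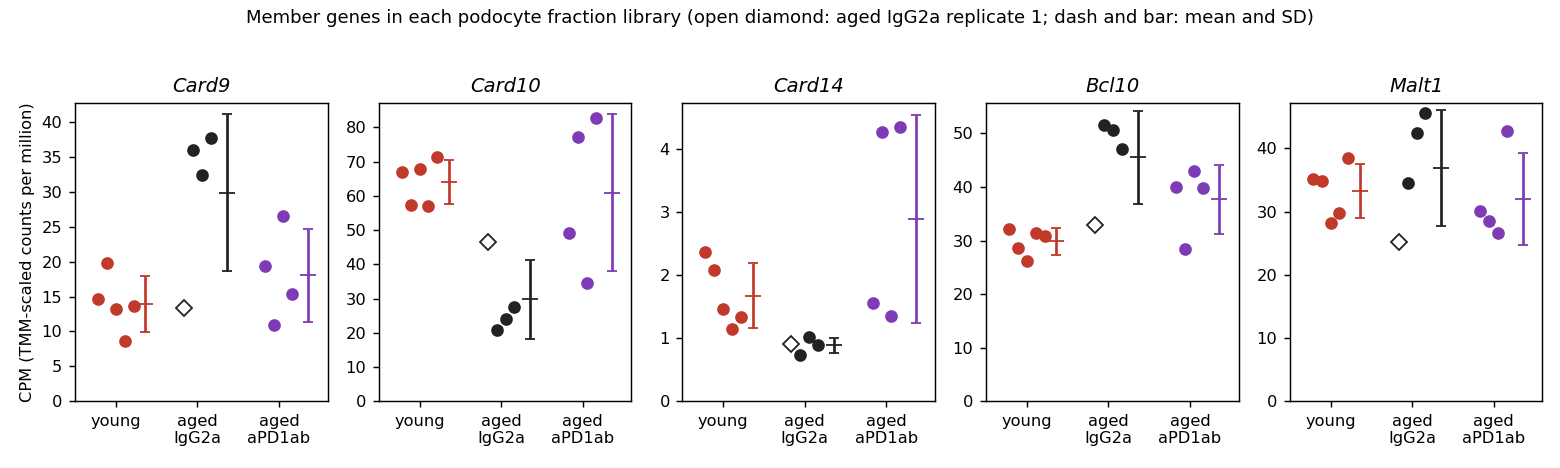
CPM of each gene in each library of the 3 groups, with a dash and bar for the mean and SD (n = 5, 4 and 4) and aged IgG2a replicate 1 as an open diamond. *Card10* in aged IgG2a-injected mice lies at 20.9 to 46.6 CPM, below all young libraries, while *Card14* with aPD1ab splits into 2 libraries above 4 CPM and 2 below 2 CPM.

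The next comparison, aPD1ab against IgG2a in aged mice, asked whether blocking PD-1 altered these genes. *Card10* and *Card14* were higher and *Card9* was lower with aPD1ab on average, but each of these calls rested on leaving out aged IgG2a replicate 1 or on another test. With every library included, none of the 5 genes passed, as 0% of 15530 genes rose and 0% fell in edgeR. At an unadjusted p under 0.05, *Card10* and *Card14* were among 4341 genes (28% of those tested), and DESeq2 called both of them, where it called 15.3% of all genes. Without aged IgG2a replicate 1, *Card10* and *Card14* rose and *Card9* fell, against 17.1% of 15770 genes that rose and 13.2% that fell. The groups did not overlap for 12% of all genes over all libraries, and for 43.2% without that replicate.

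*Card10* stood at 49.1, 77.1, 34.6 and 82.8 CPM in aged aPD1ab replicates 1 to 4, against 20.9 to 46.6 CPM with IgG2a. Replicates 2 and 4 were above every IgG2a and every young library, and replicate 3 lay within the IgG2a range. Its difference from IgG2a was 1.03 on the log2 scale (95% interval 0.28 to 1.79, edgeR adjusted p = 0.117) over all libraries and 1.32 (SE 0.31, edgeR adjusted p = 0.0182) without aged IgG2a replicate 1. Proximal tubule markers were at a summed 2746, 7900, 2390 and 4804 CPM in aPD1ab replicates 1 to 4, again with replicates 2 and 4 highest. None of the 6 markers passed over all libraries, and all 6 rose without aged IgG2a replicate 1 (median 2.71); their part in the result was not tested.

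*Card14* stood at 1.56, 4.27, 1.36 and 4.35 CPM in aged aPD1ab replicates 1 to 4, from 39, 105, 24 and 155 reads. All 4 libraries were above the highest IgG2a library, where 12% of all genes did not overlap between these groups. Replicates 2 and 4 were apart from the other 2. The log2 fold change of 1.70, the largest among the 5 genes in this comparison, had an SE of 0.45 over all libraries (edgeR adjusted p = 0.109) and of 0.52 without aged IgG2a replicate 1, where it was again 1.70 (edgeR adjusted p = 0.0404). Replicates 2 and 4 were also the highest of the group for *Card10*.

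*Card9* stood at 19.3, 10.9, 26.5 and 15.4 CPM in aged aPD1ab replicates 1 to 4. All 4 were below the 3 higher IgG2a libraries, and IgG2a replicate 1, at 13.4 CPM, lay among them. Its difference from IgG2a was -0.75 on the log2 scale (95% interval -1.57 to 0.06, edgeR adjusted p = 0.206), and -1.01 (SE 0.26, edgeR adjusted p = 0.0222) without IgG2a replicate 1. The summed macrophage markers were 2719, 1387, 3374 and 2014 CPM in aPD1ab replicates 1 to 4, in the same order as *Card9*. None of the 6 markers passed over all libraries, and all 6 fell without IgG2a replicate 1 (median -1.18); their part in the result was not tested.

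*Bcl10* stood at 40.0, 28.4, 42.9 and 39.8 CPM and *Malt1* at 30.0, 28.6, 26.7 and 42.7 CPM in aged aPD1ab replicates 1 to 4. Both overlapped the IgG2a libraries. Without IgG2a replicate 1 *Malt1* still did and *Bcl10* did not, where 43.2% of all genes did not overlap. The log2 fold change of *Bcl10* was -0.29 (95% interval -0.72 to 0.13, edgeR adjusted p = 0.324), and -0.43 without IgG2a replicate 1 (edgeR adjusted p = 0.0525). That of *Malt1* was -0.22 (95% interval -0.73 to 0.29, edgeR adjusted p = 0.541), and -0.37 without it (edgeR adjusted p = 0.153).

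**Figure D3:**
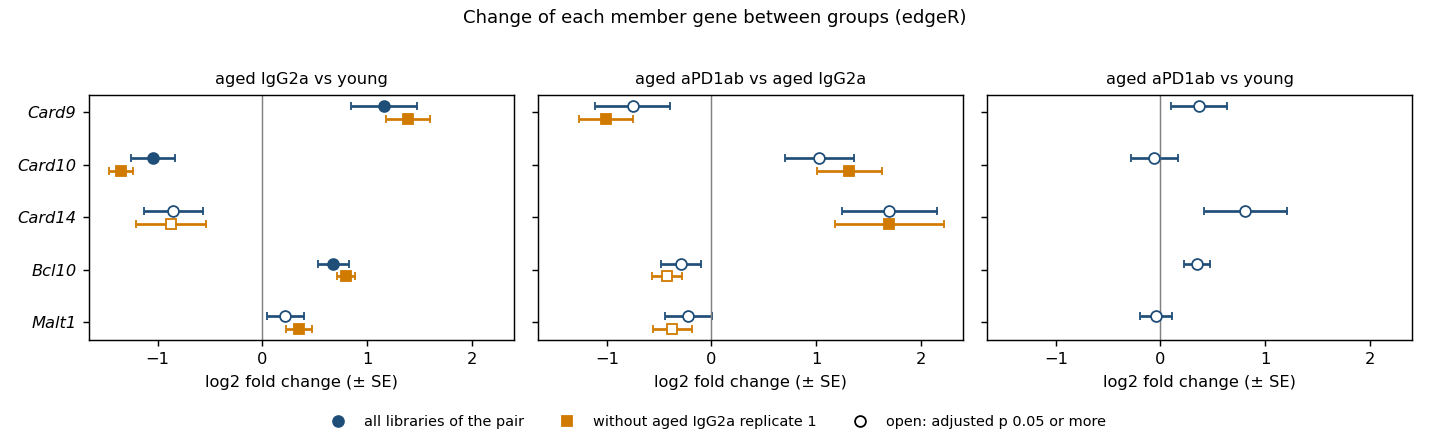
Log2 fold change of each gene with its standard error (edgeR) in the 3 comparisons, over all libraries (circles) and without aged IgG2a replicate 1 (squares), filled where the adjusted p was under 0.05. *Card10* is at -1.05 in aged IgG2a-injected against young mice and at 1.03 with aPD1ab against IgG2a, and no gene is filled in aged aPD1ab-injected against young mice.

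Aged aPD1ab-injected mice were also set against young mice. None of the 5 genes passed, where 12.4% of 15986 genes rose and 9.97% fell. At an unadjusted p under 0.05, as for 36.9% of all genes, there was 1 of the 5, *Bcl10*, at 0.35 on the log2 scale (SE 0.12, edgeR adjusted p = 0.0666). DESeq2 called 0 of the 5, where it called 28.9% of all genes. The log2 fold change of *Card10* was -0.06 (95% interval -0.56 to 0.45) and that of *Malt1* -0.04 (95% interval -0.38 to 0.30). For *Card9* it was 0.37 (95% interval -0.23 to 0.97) and for *Card14* 0.81 (95% interval -0.07 to 1.69).

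The CARD genes and *Malt1* were also read relative to the adaptor *Bcl10* within each library. How often ratios of other genes separate the groups was not computed. Of single genes, 14.5% did not overlap between IgG2a and young and 12% between aPD1ab and IgG2a. Without aged IgG2a replicate 1 these shares were 46.8% and 43.2%. The ratio of *Card10* to *Bcl10* RPKM was 1.67 to 2.39 in young mice, 0.373 to 1.30 with IgG2a and 0.744 to 2.50 with aPD1ab. The young and IgG2a-injected ranges did not meet, and the aPD1ab range met both. *Card10* was lower and *Bcl10* higher with IgG2a than in young mice, so the separation of those ranges restates these differences. Without aged IgG2a replicate 1 the IgG2a range was 0.373 to 0.541, below all aPD1ab libraries. The ratio of *Card14* to *Bcl10* was 0.0360 to 0.0728 in young mice, 0.0141 to 0.0273 with IgG2a and 0.0314 to 0.149 with aPD1ab, where the IgG2a range met neither of the others. The ratio of *Malt1* to *Bcl10* was 0.240 to 0.314, 0.169 to 0.245 and 0.157 to 0.271 in the same groups, with overlap. That of *Card9* to *Bcl10* was 0.547 to 1.38, 0.807 to 1.59 and 0.762 to 1.23, also with overlap, although without aged IgG2a replicate 1 its IgG2a range of 1.27 to 1.59 lay above the aPD1ab range.

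Across the 13 libraries the 5 genes did not vary as a unit. On log2 CPM, *Card9* ran with *Bcl10* (Pearson r = 0.84) and against *Card10* (r = -0.86), while *Card10* ran with *Card14* (r = 0.76) and against *Bcl10* (r = -0.83). The values describe 13 libraries that fall into 3 groups and share their makeup of cells, and they carry no test. *Malt1* had its strongest relations with *Card9* (r = 0.47) and *Bcl10* (r = 0.46). These values were, without aged IgG2a replicate 1, 0.84, -0.88, 0.78, -0.84, 0.44 and 0.46 in the order given.

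Among 14265 protein-coding genes, the patterns most like *Card9* over the 13 libraries were *Casp1* (r = 0.98), the protease that matures interleukin-1β, *Rasa4* (r = 0.98), a Ras GTPase-activating protein, and *Unc93b1* (r = 0.98), the chaperone of endosomal Toll-like receptors. Those most like *Card10* were *Slc5a12* (r = 0.98), a lactate transporter of the proximal tubule, *Acsm1* (r = 0.98), an acyl-CoA synthetase, and *Gldc* (r = 0.97), the glycine decarboxylase. *Slc5a12* is also among the 6 proximal tubule markers used here. It stood at a mean of 128 CPM in young mice, 31.1 with IgG2a and 125 with aPD1ab.
Those most like *Bcl10* were *Pitpna* (r = 0.96), a phosphatidylinositol transfer protein, *Rab40c* (r = 0.96) and *Timp2* (r = 0.96), a metalloproteinase inhibitor. Likeness was lower for *Card14*, with *Espn* (r = 0.93), an actin-bundling protein, *Eefsec* (r = 0.91) and *Osgin1* (r = 0.91). It was lowest for *Malt1*, with *Vim* (r = 0.90), the intermediate filament vimentin, *Cdc42ep3* (r = 0.88) and *Tnfsf8* (r = 0.87). The values of these 15 genes without aged IgG2a replicate 1 lay between 0.85 and 0.98.

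**Figure D4:**
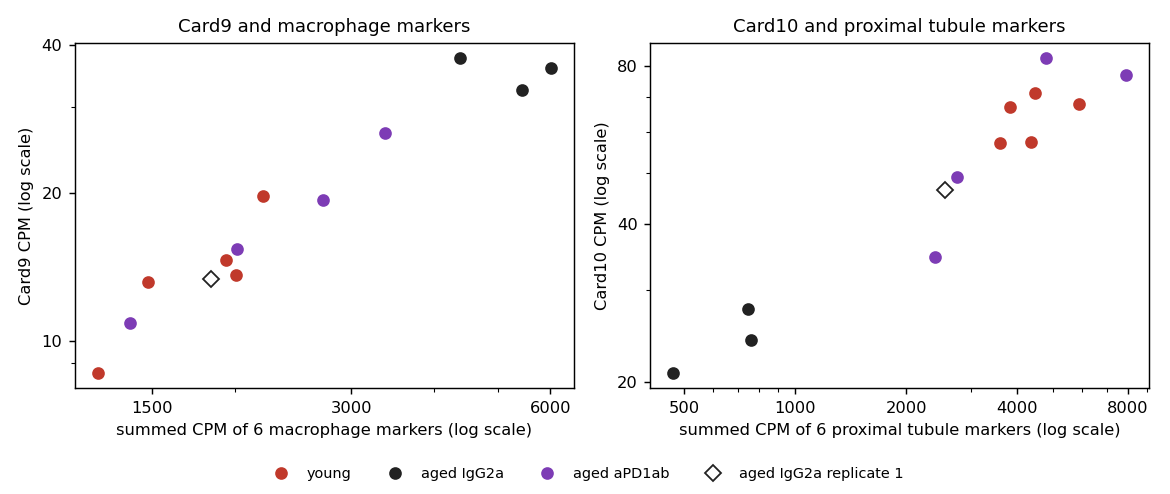
*Card9* CPM against the summed CPM of 6 macrophage markers (left) and *Card10* CPM against the summed CPM of 6 proximal tubule markers (right), both axes on a log scale, with a point for each of 13 libraries. Aged IgG2a replicate 1 (open diamond) lies away from the other 3 IgG2a libraries in both panels, among the young libraries on the left, at 13.4 CPM of *Card9*, and below all of them on the right, at 46.6 CPM of *Card10*.

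The receptors and kinases upstream of each CARD protein were read from lists of known pathway genes. Of 11 genes upstream of CARD9, 5 rose and 0 fell in aged IgG2a-injected against young mice (9.05% and 8.38% of all genes), with a median log2 fold change of 1.03 beside 0.04 for all genes tested. Leaving out aged IgG2a replicate 1, 9 rose and 0 fell, with 22.1% and 23.5% of all genes. The myeloid C-type lectin genes *Clec4n* (dectin-2; 2.52, edgeR adjusted p = 0.00206), *Clec4d* (2.33, edgeR adjusted p = 0.0133) and *Clec7a* (dectin-1; 1.61, edgeR adjusted p = 0.0269) rose, as did *Fcer1g* (1.55, edgeR adjusted p = 0.0199), a signaling chain of Fc receptors that dectin-2 also uses, and *Vav1* (1.09, edgeR adjusted p = 0.0374). For *Syk*, the kinase between these receptors and CARD9, the value was 0.80 (edgeR adjusted p = 0.0837), and 1.01 without replicate 1 (edgeR adjusted p = 0.00238). These genes are also typical of macrophages, whose markers rose beside them as given above, and the part of those cells in these changes was not tested.

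Of 12 tested genes upstream of CARD10, 2 rose and 7 fell in the same comparison without aged IgG2a replicate 1, against 22.1% and 23.5% of all genes. Over all libraries 2 rose and 4 fell, against 9.05% and 8.38% of all genes, with a median of -0.40. The genes that fell were *Prkca* (-0.89, edgeR adjusted p = 0.00636), a protein kinase C, *Agtr1a* (-1.03, edgeR adjusted p = 0.0172), the angiotensin II receptor, *Lpar3* (-1.40, edgeR adjusted p = 0.0201), a lysophosphatidic acid receptor, and *Egfr* (-1.05, edgeR adjusted p = 0.0425). *Lpar6* (1.11, edgeR adjusted p = 0.0242), another lysophosphatidic acid receptor, and *Arrb2* (1.05, edgeR adjusted p = 0.0445), a β-arrestin, rose. The 6 proximal tubule markers fell beside this list, as given above, and their part in it was not tested. Of 4 genes of the interleukin-17 receptor arm upstream of CARD14, 0 passed (median -0.07), with *Il17ra* at 0.27 and *Il17rd* at -0.14. Without replicate 1, *Il17rc* (-0.62, edgeR adjusted p = 0.00598) and *Il17rd* (-0.59, edgeR adjusted p = 0.00621) fell.

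Below the complex stand its partners, the substrates of MALT1 and NF-κB itself. In aged IgG2a-injected against young mice, 9.05% of all genes rose and 8.38% fell. Of 17 partners that act with TRAF6, TAK1, the IκB kinases and linear ubiquitin, *Traf2* rose (0.40, edgeR adjusted p = 0.0204) and *Chuk*, the IκB kinase α, fell (-0.52, edgeR adjusted p = 0.0199), with a median of 0.18. Of 8 substrates cut by MALT1, 1 rose, *Relb* (1.20, edgeR adjusted p = 0.0233), which is also an NF-κB subunit, and the median was 0.39. Of 10 NF-κB subunits and inhibitors, *Relb*, *Bcl3* (1.03, edgeR adjusted p = 0.0335) and *Rela* (0.53, edgeR adjusted p = 0.048) rose, 0 fell, and the median was 0.67.
Beside 9.05% of all genes, 3 of 16 tested NF-κB response genes rose, with a median of 0.73. They were *Vcam1* (2.22, edgeR adjusted p = 0.00422), an adhesion molecule, *Lcn2* (1.26, edgeR adjusted p = 0.00374), a marker of tubular injury, and *Bcl2a1b* (1.58, edgeR adjusted p = 0.0419), an inhibitor of apoptosis. *Tnf*, *Il1b* and *Ccl2* had log2 fold changes of 1.04, 0.71 and 1.23 and did not pass. Leaving out aged IgG2a replicate 1, 22.1% of all genes rose and 23.5% fell. There, 7 of 16 tested partners rose and 1 fell, 4 of 8 substrates rose and 7 of 10 subunits and inhibitors rose. Of 16 response genes 6 rose, *Ccl2* among them (1.45, edgeR adjusted p = 0.0476), and 1 fell. The macrophage markers rose beside these genes too, and their part was not tested.

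With aPD1ab against IgG2a, 0 genes of any of the 7 lists passed over all libraries in edgeR, as in the table as a whole. The median log2 fold change was -0.62 upstream of CARD9, 0.29 upstream of CARD10, -0.06 upstream of CARD14, -0.14 among partners, -0.45 among substrates, -0.28 among NF-κB subunits and inhibitors and -0.31 among response genes, beside -0.01 for all genes. Without aged IgG2a replicate 1, 17.1% of all genes rose and 13.2% fell. There, 6 of 11 genes upstream of CARD9 fell, among them *Plcg2* (-0.91, edgeR adjusted p = 0.0148), *Clec7a* (-1.25, edgeR adjusted p = 0.0153) and *Prkcd* (-0.74, edgeR adjusted p = 0.0155). Of 12 upstream of CARD10, 4 rose, namely *Erbb2* (0.71, edgeR adjusted p = 0.00858), *Prkcz* (1.73, edgeR adjusted p = 0.00867), *Egfr* (1.47, edgeR adjusted p = 0.0211) and *Lpar3* (2.19, edgeR adjusted p = 0.0213).
In the same libraries, and against the same shares of all genes, *Il17rc* rose (0.91, edgeR adjusted p = 0.00866). Of 16 tested partners 4 fell (*Ikbkb*, *Casp8*, *Tab3* and *Tab2*), as did 4 of 8 substrates (*N4bp1*, *Map3k14*, *Rc3h2* and *Rc3h1*). *Nfkb1* fell (-0.81, edgeR adjusted p = 0.0258) and *Sod2*, the mitochondrial superoxide dismutase, rose (1.09, edgeR adjusted p = 0.00761).

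In aged aPD1ab-injected against young mice, 12.4% of all genes rose and 9.97% fell. Of 11 genes upstream of CARD9, 3 rose and 2 fell, with a median log2 fold change of 0.24. *Clec4n* (1.91, edgeR adjusted p = 0.00332), *Clec4d* (2.10, edgeR adjusted p = 0.00674) and *Fcer1g* (0.89, edgeR adjusted p = 0.0374) rose, and *Vav3* (-0.59, edgeR adjusted p = 0.0227) and *Plcg2* (-0.59, edgeR adjusted p = 0.0335) fell. Of 12 tested genes upstream of CARD10 only *Prkce* passed (-0.46, edgeR adjusted p = 0.0227), and 0 of 4 upstream of CARD14 did. *Ikbkg*, the IκB kinase γ, fell among 16 tested partners, and *Rc3h1* and *Cyld* fell among 8 substrates. *Bcl3* and *Nfkbib* rose among 10 subunits and inhibitors. Among 16 tested response genes, *Vcam1* (1.46, edgeR adjusted p = 0.00315), *Cxcl1* (1.32, edgeR adjusted p = 0.00897) and *Lcn2* (1.32, edgeR adjusted p = 0.00948) rose.

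**Figure D5:**
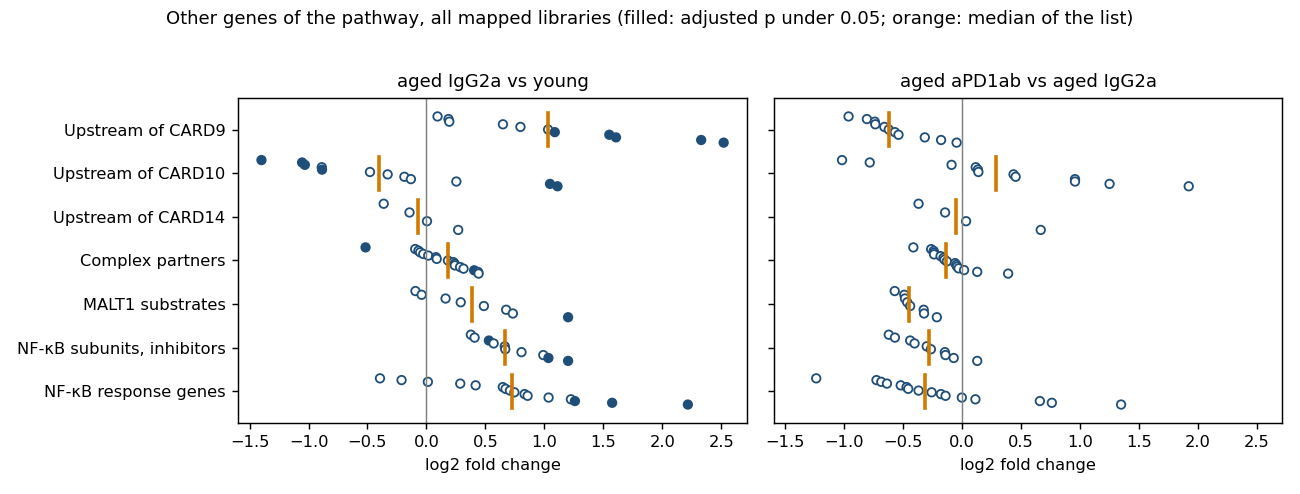
Log2 fold change of each tested gene of the 7 pathway lists over all mapped libraries, for aged IgG2a-injected against young mice (left) and aPD1ab against IgG2a in aged mice (right), filled where the edgeR adjusted p was under 0.05, with an orange line at the median of each list. The list upstream of CARD9 has its median at 1.03 on the left and at -0.62 on the right, where no gene is filled.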

How the data were processed

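RNA of MACS-sorted podocyte fractions was sequenced by the authors. The deposited values are raw counts per Ensembl gene, whole numbers that were not normalized. The submitters' processing notes name HISAT2, featureCounts and the builds mm10 and GRCm38; versions, annotation and strand setting are not given in the sources used here. Of 46078 genes, 45229 have a symbol in GENCODE M21. Columns were tied to groups by the numbers the study printed beside its podocyte libraries; which mouse of a group a column holds is not known, and 2 columns without such a number were not used. Replicates are numbered in column order. Libraries of a group differed by more than sampling noise (the smallest mean chi-square per gene was 12.7), so none was taken for a duplicate.

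Each pair of groups was fitted alone in R 4.3.3 with edgeR 4.0.16 (TMM, filterByExpr, robust quasi-likelihood test, Benjamini-Hochberg adjustment over all genes tested, threshold 0.05). Standard errors were derived from the F statistic, and 95% intervals from its degrees of freedom. CPM use TMM factors over 13 libraries, and RPKM divide by the exon length of GENCODE M21, all transcripts joined. Likeness was computed on log2 CPM (prior count 2). On simulated 4-fold changes the edgeR fit recovered 97%, 97% and 97.5% of 200 genes in the 3 comparisons. False calls numbered 16, 9 and 18. The genes of the complex changed less, at most 3.25-fold (*Card14*, aPD1ab against IgG2a, all libraries). Recovery of changes of that size or smaller was not simulated, so these shares do not cover them. On the measured counts of aPD1ab against IgG2a, the same fit called 0 of 15530 genes. Alternatives used DESeq2 1.42.0, limma 3.58.1 (voom with sample quality weights), RLE scaling, no filter, a fit of all 3 groups together, a change over 2-fold, and each library left out. Scaling by total counts was added after seeing the data.

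The 5 genes and the 7 pathway lists were chosen with earlier results of these data known. The genes named are the 5, the 3 genes most like each, and from each list up to 4 genes with the smallest p among those that passed in a comparison, or the 2 most abundant where none did, of which the text gives a subset; *Vav1*, *Egfr*, *Arrb2*, *Syk*, *Fcer1g* in aPD1ab against young, *Tnf*, *Il1b* and *Ccl2* were named after their values were seen. Marker lists of podocytes, proximal tubule and macrophages are given beside the results they moved with. Markers of other cell types were read too. In IgG2a against young their median log2 fold change was 1.81 for T cells, 0.59 for neutrophils and 0.16 for B cells. It was -0.71 for parietal epithelium, -0.62 for mesangium, -0.45 for endothelium, -0.23 for thick ascending limb and -0.02 for distal convoluted tubule and collecting duct. Protein sequences were not used here.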

Additional observations from a re-analysis of the deposited data

How the results depend on the processing

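No paired analysis was possible because the library columns carry no replicate number shared between groups. For aged IgG2a-injected against young mice, 3 of the 5 genes passed in edgeR, which called 17.4% of all genes. Between 2 and 4 did under the other tests, scalings and filters. The fits behind them called from 7.27% (no filter) to 46.5% (limma voom) of all genes. With each library left out in turn the count was between 0 and 4, with 1 without young replicate 3, 1 without aged IgG2a replicate 2 and 0 without aged IgG2a replicate 3, and fewer samples were then compared. Those fits called from 3.4% (without aged IgG2a replicate 3) to 45.6% (without aged IgG2a replicate 1) of all genes. For aPD1ab against IgG2a, where 0 passed, 2 did with DESeq2, 4 with limma voom and sample quality weights and 2 with a fit of all 3 groups, which called 15.3%, 39.7% and 17.5% of all genes, and between 0 and 3 with each library left out, 3 being the count without aged IgG2a replicate 1 (30.4% of all genes). For aPD1ab against young, where 0 passed, 1 did with limma voom (24.9% of all genes), and between 0 and 1 with each library left out, 1 being the count without aged aPD1ab replicate 2 (*Bcl10*, log2 0.46; 22.5% of all genes).

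Scaling by total counts in place of TMM moved the median log2 fold change of all genes to -0.38 in IgG2a against young, to 0.24 in aPD1ab against IgG2a and to -0.11 in aPD1ab against young. *Malt1* then turned to -0.25 and 0.10 in IgG2a against young and aPD1ab against IgG2a. In IgG2a against young, *Bcl10* was then at 0.23 (edgeR adjusted p = 0.269) and *Card9* at 0.67 (edgeR adjusted p = 0.0901). *Card9* also missed the threshold with no filter (1.11, edgeR adjusted p = 0.0553). In aPD1ab against young, *Malt1* (-0.040) turned to 0.031 with limma voom, and with each library left out it ranged from -0.21 to 0.036, being above 0 without young replicate 5 and without aged aPD1ab replicates 2 and 3. *Card10* (-0.06) ranged from -0.25 to 0.13 there, being above 0 without aged aPD1ab replicates 1 and 3. No other direction of the 5 genes turned in the alternatives run. Ranked by CPM instead of RPKM in young mice, *Malt1* was 2, *Bcl10* 3 and *Card9* 4. *Card14* rests on 13 to 155 reads a library, which adds counting error to its values.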
